A study of Mus musculus with 6 samples.

Results

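The genes described here are Acvr1c, which encodes the activin receptor ALK7, and 9 genes of activin and TGF-beta signalling: the ligand genes Gdf3, Inhba, Inhbb, Tgfb1, Tgfb2 and Tgfb3, the antagonist genes Fst and Fstl3, and Tgfbi. They were chosen by gene symbol from the deposited intensity table, which gave 13 reporters for these 10 genes, of 39507 reporters in the table and 25753 genes that could be tested. The study profiled transcripts of adipose tissue, given as eWAT in the labels, of mice aged 9 weeks on 6 arrays with 2 channels each. On every array the sample was labelled with Cy5 and set against a common pool of ob/+ RNA labelled with Cy3, so each reporter has an intensity in the sample, an intensity in the pool and the log2 ratio of sample over pool.

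The obese group comprised 3 samples of ob/ob mice, which carry the obese mutation of the leptin gene on both chromosomes and make no working leptin. The lean group comprised 3 samples of ob/+ mice, which carry the mutation on 1 chromosome, so that both groups carry the mutant allele. The genetic background was C57BLKS/J in all samples. The labels do not say that each sample came from an animal of its own, so the p-values reflect how much these samples vary, which may be technical. They name no batch. The deposited table calls the lean samples and the pool wt, and the genotype given here is that of the labels.

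Ligands of the TGF-beta family are secreted dimers that bind a pair of type II and a pair of type I receptor kinases. Activins, GDF3 and the TGF-betas act through Smad2 and Smad3, and bone morphogenetic proteins through Smad1, Smad5 and Smad9, with Smad4 as the shared partner. ALK7 is a type I receptor found mainly in adipocytes, where activin B and, with the co-receptor Cripto, GDF3 can act through it. Its signalling in mouse fat is known to restrain lipolysis and to lower the expression of beta-adrenergic receptors. Follistatin, encoded by Fst, and follistatin-like 3, encoded by Fstl3, bind activins and keep them from their receptors.

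Of the 10 genes, Acvr1c, Tgfb2 and Inhba were lower in ob/ob and Fst was higher, at an adjusted p under 0.05 in limma. The other 6 did not pass the test. The count of 4 of 10 stood against a background of 24.6% of all 25753 genes called in either direction, 12.4% higher and 12.2% lower. In 6 of the 10 genes the 3 ob/ob log2 ratios did not overlap the ob/+ ratios, of which 2 were measured for Inhbb, and the same held for 40.1% of all genes. Over reporters, 6 of 13 were called, against 20.9% of all reporters. Of the 9 genes with a mean intensity of at least 0.1, 3 were called, against 32.4% of all such genes. The median log2 fold change of the 10 genes was 0.09, against 0.00 over all genes tested. All log2 fold changes here are ob/ob minus ob/+ from limma on the log2 ratios, with standard errors (SE) and p-values adjusted by the Benjamini-Hochberg method over all reporters.

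**Figure D1:**
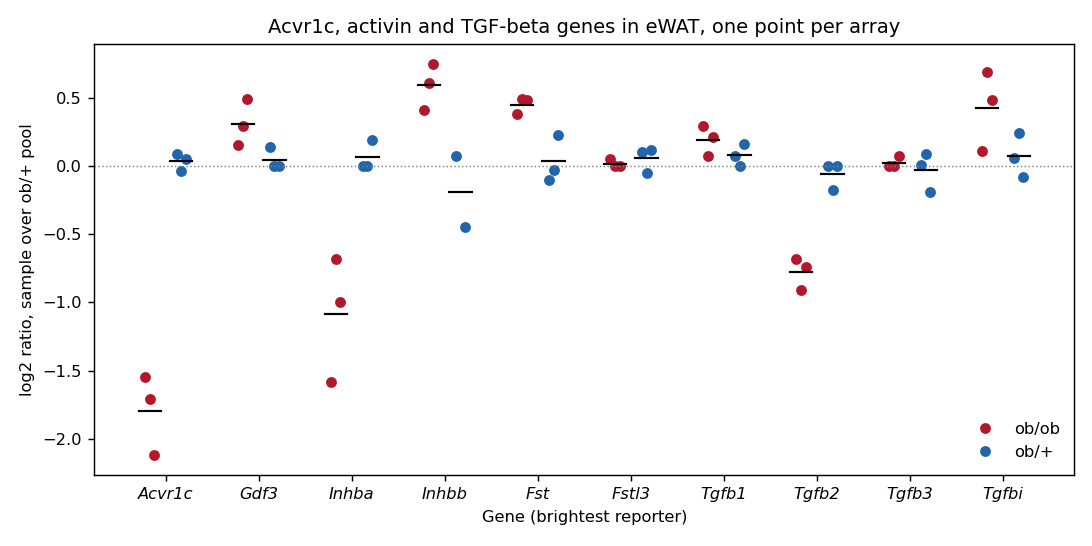
Log2 ratio of sample over ob/+ pool (vertical axis) for the brightest reporter of each of the 10 genes (horizontal axis), 1 point per array, with ob/ob in red and ob/+ in blue and a line at each group mean. Acvr1c, Inhba and Tgfb2 lie below their ob/+ points, Gdf3, Inhbb and Fst above them, and the groups overlap in the other 4 genes. Inhbb has 2 ob/+ points.

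The promoter sequences of the 3 genes that were lower in ob/ob are shown because these members moved in the same direction. Each runs over the 250 bases before the start of the RefSeq gene model, in mouse build GRCm38.p6, read 5′ to 3′ on the strand of the gene. Acvr1c lies at chr2:58357759-58358008 on the minus strand, Inhba at chr13:16011601-16011850 on the plus strand and Tgfb2 at chr1:186705990-186706239 on the minus strand. Capitals mark matches, on either strand, to the Smad box CAGAC, the Sp1 box GGGCGG, the TATA box TATAAA, the E-box CACGTG and the cyclic AMP response motif TGACG.
Acvr1c: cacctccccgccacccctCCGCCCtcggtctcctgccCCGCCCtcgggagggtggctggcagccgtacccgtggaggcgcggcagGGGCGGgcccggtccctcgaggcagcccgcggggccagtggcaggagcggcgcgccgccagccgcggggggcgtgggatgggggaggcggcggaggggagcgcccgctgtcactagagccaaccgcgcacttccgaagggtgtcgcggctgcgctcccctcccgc
Inhba: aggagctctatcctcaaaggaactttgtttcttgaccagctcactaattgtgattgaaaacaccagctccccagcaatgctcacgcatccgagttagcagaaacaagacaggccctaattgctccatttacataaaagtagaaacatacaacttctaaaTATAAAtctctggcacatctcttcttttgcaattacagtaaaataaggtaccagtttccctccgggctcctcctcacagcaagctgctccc
Tgfb2: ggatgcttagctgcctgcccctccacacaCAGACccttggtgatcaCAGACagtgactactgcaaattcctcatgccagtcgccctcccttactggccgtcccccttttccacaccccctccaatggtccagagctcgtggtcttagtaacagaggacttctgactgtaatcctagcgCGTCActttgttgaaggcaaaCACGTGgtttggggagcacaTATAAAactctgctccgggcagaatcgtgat

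The Acvr1c window had 79.6% G and C, against a median of 52.4% over all 32851 promoters of the table, and held 3 Sp1 boxes and none of the other 4 motifs. A second RefSeq start of Acvr1c, at chr2:58324808-58325057, had 49.6% G and C and none of the 5 motifs. The Inhba window had 43.2% G and C and 1 TATA box, 91 bases before the start. The Tgfb2 window held 2 Smad boxes, 1 TATA box, 1 E-box and 1 cyclic AMP response motif, at 53.6% G and C. No motif was common to the 3 windows printed. Of all promoter windows of this length, 42.2% held a Smad box, 32.7% an Sp1 box, 12.4% a TATA box, 6.0% this E-box and 17.8% the cyclic AMP response motif. A match is a description of the letters and not a site of binding. Of the 10 genes, 7 had a promoter entry: Acvr1c, Inhba, Inhbb, Fstl3, Tgfb1, Tgfb2 and Tgfbi. The Inhbb window, at 68.0% G and C, held 1 Sp1 box, that of Tgfb1 5 Sp1 boxes, that of Fstl3 2 Smad boxes, 4 Sp1 boxes and 1 TATA box, and that of Tgfbi 2 Smad boxes and 1 Sp1 box.

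The receptor gene Acvr1c was the member with the largest change. Its brighter reporter had sample intensities of 2.59, 2.65 and 2.01 on the ob/ob arrays, against 9.14, 8.71 and 8.58 on the ob/+ arrays, in the authors' units. The groups were far apart, and the lean arrays differed little among themselves. The log2 ratios to the pool were -1.55, -1.71 and -2.12 on the ob/ob arrays and 0.09, -0.04 and 0.05 on the ob/+ arrays. Mean intensity was 2.42 ± 0.353 in ob/ob and 8.81 ± 0.293 in ob/+ (SD, n = 3 each). Acvr1c was thus 3.54-fold lower in ob/ob, a log2 fold change of -1.82 ± 0.16 (SE, adjusted p 0.00462 in limma). A lower log2 fold change was found in 412 genes, which is 1.6% of the genes tested. Among the 1242 genes whose brightest reporter was at least as bright, 27 had a lower one. The call of Acvr1c held under all 22 alternative settings, with log2 fold changes of -1.95 to -1.66 when each array was left out in turn.

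The dimmer Acvr1c reporter, designed on an expressed sequence tag, read 0.38, 0.28 and 0.33 on the ob/ob arrays, against 0.62, 0.54 and 0.63 on the ob/+ arrays. It was lower on every ob/ob array too, but by less. Its log2 fold change was -0.67 ± 0.13 (SE), 1.59-fold lower, with an adjusted p of 0.0265 in limma. The log2 ratio of the brighter reporter minus that of the dimmer one was -1.09, -0.81 and -1.33 on the ob/ob arrays, against 0.09, -0.04 and 0.18 on the ob/+ arrays. The size of the fall therefore depends on the reporter, and both had the same direction.

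**Figure D2:**
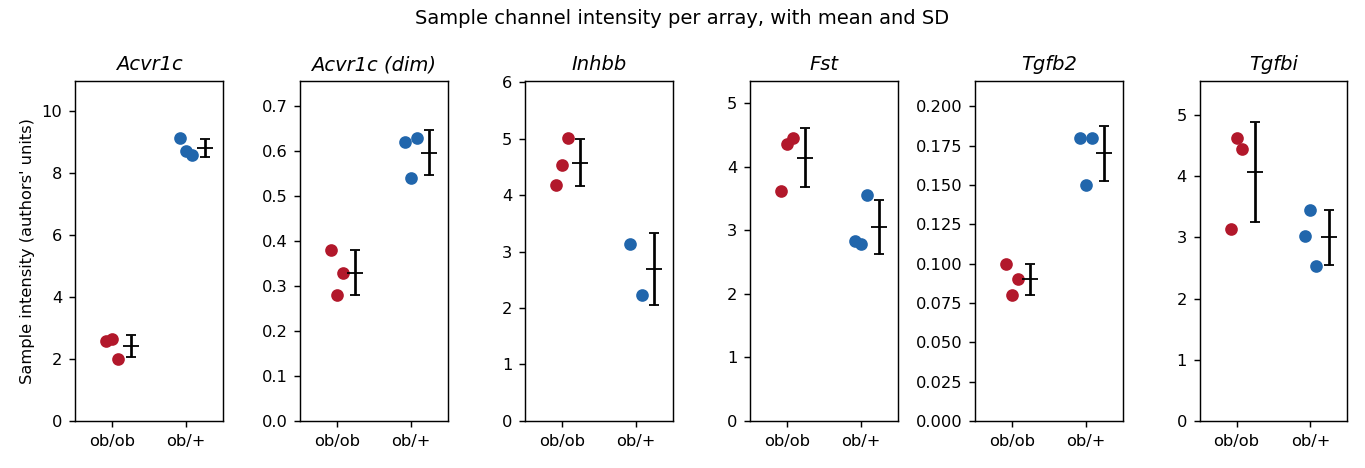
Sample channel intensity in the authors' units (vertical axes, starting at 0, each gene on its own scale) on the 3 ob/ob arrays in red and the 3 ob/+ arrays in blue, with the mean and SD of each group as bars. Both Acvr1c reporters and Tgfb2 are lower on every ob/ob array than on any ob/+ array, Inhbb and Fst are higher, and Tgfbi overlaps. Inhbb has 2 ob/+ arrays.

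Of the ligands that can act through ALK7, Inhbb encodes the subunit of activin B. Its brighter reporter read 4.18, 4.54 and 5.02 on the ob/ob arrays, against 3.14 and 2.24 on 2 ob/+ arrays, with no value on the other lean array. All ob/ob arrays were above both lean values. The log2 ratios were 0.41, 0.61 and 0.75 on the ob/ob arrays and 0.07 and -0.45 on the ob/+ arrays. The log2 fold change was 0.78 ± 0.21 (SE), or 1.72-fold, and did not pass the test at an adjusted p of 0.0794 in limma. It passed with the sample channel alone (adjusted p 0.0177), with reporters under a mean intensity of 0.1 left out (0.023), with the dimmest quartile left out (0.0421) and as the mean over its reporters (0.03), in limma each time. The sample channel alone here is its log2 intensity minus the median of the array, so its values need not follow the printed intensities. The dimmer Inhbb reporter read 0.08, 0.07 and 0.08 in ob/ob and 0.08, 0.07 and 0.12 in ob/+. Its log2 fold change was -0.04 ± 0.11 (SE), with overlapping groups, and rounding could move it by up to 0.36.

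Gdf3 encodes a ligand that mouse fat is known to express in obesity. Its reporter read 0.1, 0.11 and 0.14 on the ob/ob arrays, against 0.11, 0.11 and 0.15 on the ob/+ arrays, so the sample intensities overlapped. Its log2 ratios to the pool were 0.15, 0.29 and 0.49 on the ob/ob arrays and 0.14, 0.00 and 0.00 on the ob/+ arrays, and these did not overlap. The log2 fold change of 0.26 ± 0.10 (SE) had an adjusted p of 0.146 in limma. Most intensities were deposited in steps of 0.01, and rounding alone could move the Gdf3 value by up to 0.26, which is as large as the change itself.

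Inhba encodes the subunit of activin A. Its reporter was the dimmest of the 10, at 0.02, 0.05 and 0.03 on the ob/ob arrays, against 0.06, 0.06 and 0.08 on the ob/+ arrays. The log2 ratios were -1.58, -0.68 and -1.0 on the ob/ob arrays and 0.00, 0.00 and 0.19 on the ob/+ arrays. Inhba fell by 1.15 ± 0.25 on the log2 scale (SE, adjusted p 0.0353 in limma), of which rounding could account for up to 0.61. The call was lost with the sample channel alone (-0.83, adjusted p 0.134), and without ob/ob replicate 3, at an adjusted p of 0.107, or without ob/+ replicate 1, 2 or 3, at 0.105, 0.0892 and 0.119 in limma.

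Among the antagonists, Fst read 3.62, 4.36 and 4.46 on the ob/ob arrays, against 2.83, 2.79 and 3.55 on the ob/+ arrays. All ob/ob intensities were above all lean ones, the lowest of them narrowly. The log2 ratios were 0.38, 0.49 and 0.48 on the ob/ob arrays and -0.10, -0.03 and 0.23 on the ob/+ arrays. Fst rose 1.34-fold, a log2 fold change of 0.42 ± 0.10 (SE, adjusted p 0.0445 in limma). Loess normalization of each array ended this call (0.40, adjusted p 0.0515 in limma). So did leaving out ob/ob replicate 1, 2 or 3, at adjusted p of 0.0878, 0.126 and 0.138, or ob/+ replicate 1 or 2, at 0.112 and 0.12. Fstl3 read 0.27, 0.28 and 0.28 in ob/ob and 0.3, 0.27 and 0.38 in ob/+, with overlapping groups and a log2 fold change of -0.04 ± 0.06 (SE, adjusted p 0.689 in limma).

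The 3 genes of the TGF-beta ligands did not move alike. Tgfb2 had sample intensities of 0.1, 0.08 and 0.09 on the ob/ob arrays, against 0.18, 0.15 and 0.18 on the ob/+ arrays, and log2 ratios of -0.68, -0.91 and -0.74 in ob/ob against 0.00, -0.18 and 0.00 in ob/+. The groups were well separated. Tgfb2 was 1.64-fold lower, a log2 fold change of -0.71 ± 0.09 (SE, adjusted p 0.00826 in limma), and rounding could move this by up to 0.21. After quantile normalization of the log ratios the value was -0.40 and no longer passed (adjusted p 0.171 in limma).

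Tgfb1, the form most made by immune cells, read 0.22, 0.2 and 0.22 on the ob/ob arrays, against 0.21, 0.18 and 0.29 on the ob/+ arrays. The groups overlapped, with a log2 fold change of 0.12 ± 0.07 (SE, adjusted p 0.36 in limma). Tgfb3 read 1.62, 1.92 and 2.11 on the ob/ob arrays, against 1.93, 2.03 and 1.74 on the ob/+ arrays. These overlapped as well, at 0.06 ± 0.08 (SE, adjusted p 0.675 in limma).

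Tgfbi encodes a secreted matrix protein named for its induction by TGF-beta. Its brighter reporter read 3.13, 4.63 and 4.44 on the ob/ob arrays, against 3.03, 3.44 and 2.54 on the ob/+ arrays. One ob/ob array lay within the range of the lean arrays and the other 2 above it. The log2 fold change of 0.36 ± 0.18 (SE) had an adjusted p of 0.235 in limma. The dimmer reporter had log2 ratios of 0.13, 0.16 and 0.24 in ob/ob and -0.06, -0.08 and 0.00 in ob/+, and passed at 0.22 ± 0.04 (SE, adjusted p 0.0274 in limma). Its sample intensities overlapped, at 0.24, 0.19 and 0.13 in ob/ob and 0.22, 0.18 and 0.34 in ob/+, and rounding could move its log2 fold change by up to 0.15.

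Other genes of the pathway were taken from 9 lists, of which 109 of 112 genes were measured. Of these, 24 were higher and 20 lower in ob/ob, with a median log2 fold change of -0.01. Over all genes tested 24.6% were called, and 32.4% of those with a mean intensity of at least 0.1. The counts of each list below stand beside these shares. The members, the pathway genes taken by the naming rule and 4 named after their values were seen numbered 74, of which 35 were called. This share cannot be read against the background of 24.6%, because many were taken for the lowest p-values of their list and 4 after their values were seen. After quantile normalization of the log ratios 9 of these 35 were still called, namely Acvr1c, Mstn, Gdf10, Ltbp2, Smad3, Nedd9, Lox, Timp1 and Pde3b. Calls lost there cannot be told apart from the effect of giving both groups the same spread of ratios. When each array was left out in turn, 22 were called every time.

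Of the 6 other type I receptor genes, Tgfbr1 and Acvr1b were higher in ob/ob and Bmpr1b lower. Their median log2 fold change was 0.03. Acvr1b, which encodes the activin receptor ALK4, read 4.01, 3.82 and 4.06 on the ob/ob arrays, against 2.96, 2.64 and 2.24 on the ob/+ arrays. It rose by 0.64 ± 0.11 on the log2 scale (SE, adjusted p 0.0214 in limma), opposite to Acvr1c. Its dimmer reporter gave -0.09 (adjusted p 0.275 in limma), so the rise rests on the brighter reporter. It also failed the test when ob/ob replicate 1, 2 or 3 (adjusted p 0.0689, 0.0635 and 0.0812 in limma) or ob/+ replicate 2 (0.0594) was left out.

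Tgfbr1, the type I receptor of the TGF-betas, read 1.45, 2.28 and 1.74 on the ob/ob arrays, against 1.09, 1.23 and 1.06 on the ob/+ arrays. It rose by 0.78 ± 0.12 on the log2 scale (SE, adjusted p 0.0163 in limma), and it no longer passed when ob/ob replicate 3 (adjusted p 0.0686) or ob/+ replicate 1 or 3 (0.0662 and 0.0656) was left out. Bmpr1b, a receptor of bone morphogenetic proteins, read 0.07 on all 3 ob/ob arrays, against 0.24, 0.42 and 0.39 on the ob/+ arrays. It fell by 2.18 ± 0.26 on the log2 scale (SE, adjusted p 0.00841 in limma). Acvr1, Acvrl1 and Bmpr1a did not pass, with log2 fold changes of -0.12, 0.07 and -0.01.

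Of the 5 type II receptor genes, which had a median log2 fold change of 0.11, 1 was lower in ob/ob and none higher. Acvr2b, a receptor of activins and myostatin, read 0.31, 0.3 and 0.32 on the ob/ob arrays, against 0.53, 0.41 and 0.54 on the ob/+ arrays. It fell by 0.62 ± 0.15 on the log2 scale (SE, adjusted p 0.0484 in limma). That call was lost with the sample channel alone (-0.40, adjusted p 0.0996 in limma) and without any 1 of 5 of the 6 arrays, ob/+ replicate 2 being the exception. Acvr2a, Tgfbr2, Amhr2 and Bmpr2 did not pass, at 0.11, 0.27, -0.30 and 0.89. Bmpr2 came close, at an adjusted p of 0.0521 in limma with groups that did not overlap, and it passed under 8 of its 21 alternatives. Acvr2a and Bmpr2 had mean intensities under 0.1, and rounding could move their log2 fold changes by up to 0.69 and 0.37. Of the 8 co-receptor and decoy genes, with a median of -0.01, Eng was lower and Cfc1 higher. Eng, which encodes endoglin of endothelial cells, read 17.1, 16 and 17.5 in ob/ob and 21.9, 20.8 and 19.3 in ob/+. It fell by 0.37 ± 0.04 on the log2 scale (SE, adjusted p 0.00788 in limma). Eng did not pass with the sample channel alone (-0.03, adjusted p 0.897 in limma), where each array's median is subtracted. That value is therefore not the difference of the intensities printed here. Cfc1 was so dim that rounding could move its log2 fold change of 0.72 by up to 1.43. The same held for Tdgf1, which encodes Cripto, at 0.12 with up to 4.54 from rounding, so that its level cannot be read from these arrays.

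**Figure D3:**
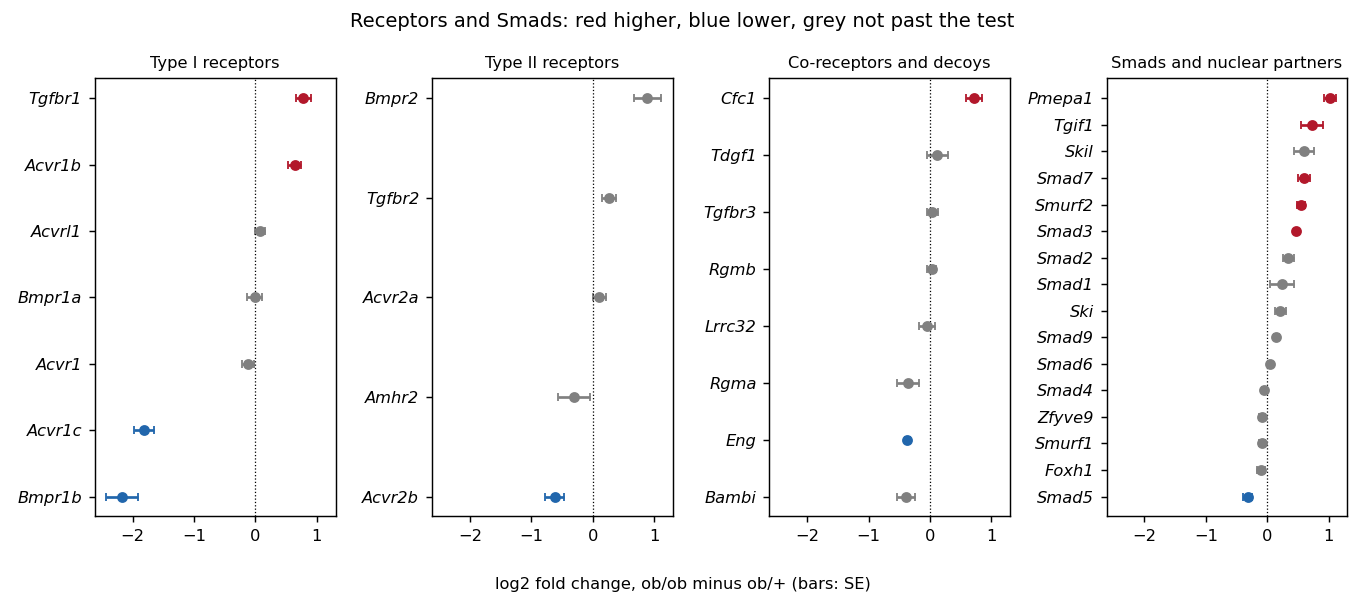
Log2 fold change, ob/ob minus ob/+ (horizontal axis), with its SE as bars, for Acvr1c and the genes of 4 pathway lists (vertical axes). Red points passed the test as higher in ob/ob, blue points as lower, and grey points did not pass. Acvr1c and Bmpr1b lie at the low end of the type I receptors, and 5 of the 16 Smad and partner genes are red and 1 is blue.

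Of the 16 genes of Smads and their nuclear partners, 5 were higher in ob/ob and 1 lower, with a median log2 fold change of 0.22. All 16 had a mean intensity of at least 0.1, and of all such genes 32.4% were called. Smad3, a transcription factor of the activin and TGF-beta branch, read 2.23, 2.36 and 2.23 on the ob/ob arrays, against 1.62, 1.69 and 1.59 on the ob/+ arrays. It rose by 0.47 ± 0.02 on the log2 scale (SE, adjusted p 0.00184 in limma), with little spread within either group. Pmepa1, a TGF-beta target that restrains Smad signalling, read 11.6, 10.4 and 12 in ob/ob and 6.29, 6.26 and 5.1 in ob/+, and rose by 1.03 ± 0.10 on the log2 scale (SE, adjusted p 0.00569 in limma).

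The inhibitory Smad gene Smad7 read 0.52, 0.52 and 0.63 in ob/ob and 0.37, 0.43 and 0.4 in ob/+, and rose by 0.60 ± 0.10 (SE, adjusted p 0.0209 in limma). Smurf2, whose product marks receptors and Smads for breakdown, read 0.6, 0.61 and 0.67 in ob/ob and 0.43, 0.44 and 0.45 in ob/+, and rose by 0.55 ± 0.06 (SE, adjusted p 0.0061 in limma). The repressor gene Tgif1 passed at 0.73 with an adjusted p of 0.0499, and Smad5, of the bone morphogenetic protein branch, at -0.32 with an adjusted p of 0.0496 in limma. Without 1 array, Smad7 was lost for ob/ob replicate 1 or 3 and ob/+ replicate 1 or 2, with adjusted p of 0.0598 to 0.0781, and Tgif1 and Smad5 for 5 of the 6 arrays each. Smad5 also no longer passed with the sample channel alone (-0.12, adjusted p 0.619 in limma) or with either other prior (0.0524 and 0.052). Smad2 and Smad4 did not pass, at 0.34 and -0.05. The brighter reporter of Skil, which encodes a repressor of Smads, did not pass at 0.60 (adjusted p 0.0562 in limma). Its dimmer reporter did, at 1.21 ± 0.14 (SE, adjusted p 0.00773), of which rounding could account for up to 0.47, and Skil passed under 10 of the 22 alternatives.

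Of the 22 other ligand genes of the family, 7 were higher and 5 lower in ob/ob, with a median log2 fold change of -0.07. Mstn, which encodes myostatin, read 0.36, 0.4 and 0.34 on the ob/ob arrays, against 0.15, 0.16 and 0.22 on the ob/+ arrays, and rose by 1.28 ± 0.10 (SE, adjusted p 0.0038 in limma). The summed intensity of 6 skeletal muscle markers was 4.22 to 4.7 in ob/ob and 1.06 to 1.9 in ob/+, with 2 higher, 1 lower and 3 not passing, and their part in this result was not tested. Pvalb carried most of that difference, with a mean intensity of 2.24 in ob/ob and 0.05 in ob/+, and Acta1, which did not pass, had 1.93 in ob/ob and 1.26 in ob/+. Bmp7, a bone morphogenetic protein, read 0.09, 0.17 and 0.11 in ob/ob and 0.81, 0.99 and 1.02 in ob/+, and fell by 2.82 ± 0.23 on the log2 scale (SE, adjusted p 0.00418 in limma). Inhbc, another activin subunit, and Gdf1 fell by 0.44 ± 0.03 and 0.49 ± 0.04 on the log2 scale (SE, adjusted p 0.00298 and 0.00357 in limma), and neither passed with the sample channel alone. Gdf10, which encodes BMP3b and was chosen after its values were seen, read 7.48, 4.76 and 5.55 on the ob/ob arrays, against 21.6, 23.5 and 20.7 on the ob/+ arrays. It fell by 1.94 ± 0.20 on the log2 scale, 3.85-fold lower (SE, adjusted p 0.00587 in limma).

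Of the 15 extracellular binders and activators, 3 were higher and 5 lower, with a median of -0.02. Ltbp2, named for the latent TGF-beta binding protein family and found in elastic fibres, read 0.6, 0.56 and 0.62 in ob/ob and 0.25, 0.2 and 0.21 in ob/+. It rose by 1.60 ± 0.08 (SE, adjusted p 0.00184 in limma). Itgav, an integrin subunit that can help to release latent TGF-beta, read 3.28, 3.36 and 3.56 in ob/ob and 2.1, 2.07 and 1.66 in ob/+. It rose by 0.73 ± 0.07 (SE, adjusted p 0.00496 in limma). Its dimmer reporter did not pass, at 0.23, a value that rounding could move by up to 0.65. Ltbp4 read 4.88, 4.72 and 3.99 in ob/ob and 9.49, 8.87 and 8.09 in ob/+, and fell by 0.95 ± 0.11 on the log2 scale (SE, adjusted p 0.00761 in limma). Of the same family, and outside the naming rule, Ltbp1 was also lower, at -0.69 (adjusted p 0.0213 in limma). Ltbp3 did not pass, at 0.34 (adjusted p 0.0896 in limma). Nog, an antagonist of bone morphogenetic proteins that was named after its values were seen, read 1.44, 1.74 and 1.73 in ob/ob and 0.73, 0.96 and 0.51 in ob/+. It rose by 1.28 ± 0.24 (SE, adjusted p 0.0247 in limma), and its dimmer reporter did not pass, at 0.02 (adjusted p 0.933). Rounding could move the value of that dimmer reporter by up to 0.52. The Nog call was also lost without ob/ob replicate 1, 2 or 3 or ob/+ replicate 1, with adjusted p of 0.0665 to 0.0935.

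The ob/+ arrays also held signal of epididymal epithelium. The summed intensity of 8 markers was 1.01, 0.73 and 0.74 on the ob/ob arrays, against 21.6, 53.2 and 40 on the ob/+ arrays, with 4 of the 8 lower in ob/ob and none higher. Motile cilia markers summed to 1.17 to 1.8 in ob/ob and 4.34 to 8.85 in ob/+, with 3 of 5 lower. Mesothelial markers summed to 5.16 to 11.1 in ob/ob and 14.8 to 18.6 in ob/+, with 3 of 8 lower. Acvr1c, Bmpr1b, Bmp7 and Gdf10 were low and high in the same groups as these sums, whose part in the falls was not tested. The same holds for any gene called lower in ob/ob, which were 12.2% of the genes tested, and is not particular to these.

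**Figure D4:**
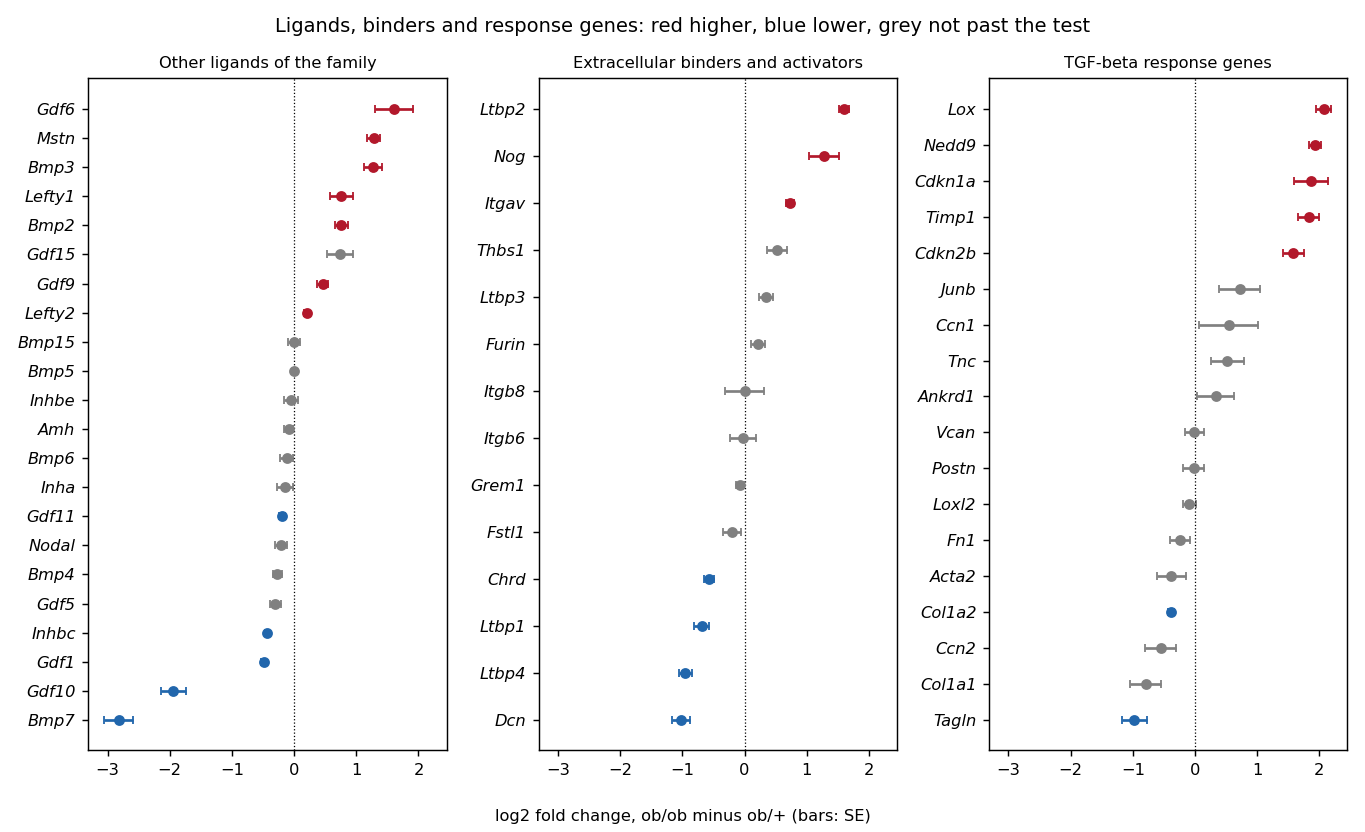
Log2 fold change, ob/ob minus ob/+ (horizontal axis), with its SE as bars, for genes of 3 pathway lists (vertical axes). Red points passed the test as higher in ob/ob, blue points as lower, and grey points did not pass. Bmp7 is the lowest point, and Lox and Nedd9 are the highest of the TGF-beta response genes shown.

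Of the TGF-beta response genes, 19 of 20 were measured, of which 6 were higher and 2 lower, with a median log2 fold change of 0.33. Nedd9, a scaffold protein of cell adhesion, read 1.14, 1.38 and 1.26 on the ob/ob arrays, against 0.32, 0.39 and 0.34 on the ob/+ arrays, and rose by 1.93 ± 0.09 (SE, adjusted p 0.00142 in limma). Lox, the lysyl oxidase that crosslinks collagen, read 3.41, 3.15 and 2.68 in ob/ob and 0.73, 0.79 and 0.64 in ob/+, and rose by 2.07 ± 0.12 (SE, adjusted p 0.00228 in limma). Timp1, an inhibitor of matrix proteases, read 0.28, 0.47 and 0.46 in ob/ob and 0.12, 0.11 and 0.12 in ob/+, and rose by 1.83 ± 0.17 (SE, adjusted p 0.00504 in limma). In these 3 genes every ob/ob array was above every ob/+ array.

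The cell cycle inhibitor gene Cdkn2b read 5.35, 6.55 and 8.12 in ob/ob and 2.26, 2.74 and 1.83 in ob/+, and rose by 1.58 ± 0.17 (SE, adjusted p 0.00664 in limma). The 2 genes of the list called lower were Tagln, an actin-binding protein of smooth muscle, at -0.98 ± 0.20, and the collagen gene Col1a2, at -0.38 ± 0.05 (SE, adjusted p 0.0286 and 0.0125 in limma). Both were named after their values were seen. The Tagln call was lost without any 1 of 5 of the 6 arrays, ob/+ replicate 2 being the exception, with adjusted p of 0.0601 to 0.0989, and Col1a2 did not pass with the sample channel alone (-0.04, adjusted p 0.899). Col1a1, Fn1 and Postn did not pass, at -0.79, -0.24 and -0.02. Macrophage markers moved with the same groups, as 13 of 15 were higher in ob/ob and none lower. They summed to 108, 203 and 206 on the ob/ob arrays, against 47.1, 49.3 and 43.7 on the ob/+ arrays, and their part in the response genes, Smads, Fst and Tgfbr1 was not tested.

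Of the 8 response genes of bone morphogenetic proteins, none was higher and 2 were lower in ob/ob, with a median of -0.14. Id1, an inhibitor of basic helix-loop-helix factors, read 3.29, 2.56 and 4.61 in ob/ob and 7.18, 8.68 and 13.2 in ob/+, and fell by 1.48 ± 0.32 on the log2 scale (SE, adjusted p 0.035 in limma). Id4, of the same family, fell by 1.06 ± 0.20 (SE, adjusted p 0.026 in limma). The Id1 call was lost without each of the 6 arrays in turn, with adjusted p of 0.0574 to 0.101, and the Id4 call without ob/ob replicate 3 or any of the 3 ob/+ replicates, with 0.0742 to 0.0975.

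Of 12 lipolysis genes chosen because ALK7 is known to act on this process in mouse fat, 10 were measured, 2 were lower and none higher, with a median of -0.23. Pde3b, the phosphodiesterase through which insulin lowers cyclic AMP in fat, read 12.4, 9.53 and 8.18 on the ob/ob arrays, against 33.1, 32.6 and 27.4 on the ob/+ arrays. It fell by 1.82 ± 0.20 on the log2 scale (SE, adjusted p 0.00657 in limma), and 5 of its 6 reporters were called lower. Adrb3, the beta-adrenergic receptor typical of fat cells, read 0.04, 0.03 and 0.03 in ob/ob and 0.21, 0.19 and 0.12 in ob/+. It fell by 2.24 ± 0.25 on the log2 scale (SE, adjusted p 0.00674 in limma), of which rounding could account for up to 0.36. Pparg and Lipe did not pass, at 0.07 and -0.42. Plin1, which encodes the lipid droplet coat protein perilipin, did not pass with its brighter reporter, at -0.56 (adjusted p 0.212 in limma). It passed as lower with its dimmer one, at -0.48 ± 0.07 (SE, adjusted p 0.0148), and as the mean over both, at -0.52 (adjusted p 0.0433). Pnpla2, the first lipase of the pathway, had values on the 3 ob/ob arrays alone and was not tested.

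Adipocyte markers bear on Acvr1c, which adipocytes express. Of 9 measured, 4 were lower and 1 higher in ob/ob, and they summed to 72.8, 55 and 56.3 on the ob/ob arrays, against 110, 109 and 98.7 on the ob/+ arrays. In bulk tissue, fewer adipocytes and less Acvr1c RNA per adipocyte cannot be told apart. The 4 lower adipocyte markers were Adipoq, Retn, Fabp4 and, outside the naming rule, Slc2a4, with log2 fold changes of -1.26, -1.70, -0.84 and -0.86. The higher one was Dgat2, at 1.95. Pparg, a transcription factor of adipocytes, did not pass and read 5.7, 5.14 and 5.02 in ob/ob and 5.72, 5.26 and 4.23 in ob/+. Progenitor and fibroblast markers summed to 29.1 to 32.1 in ob/ob and 33.7 to 40.5 in ob/+, with 2 of 8 higher and 5 lower. Endothelial markers overlapped, at 12.1 to 15.8 in ob/ob and 13.8 to 16.8 in ob/+, with none of 6 called, and so did T and NK cell markers, at 1.82 to 2.12 in ob/ob and 1.6 to 2.26 in ob/+, with 1 of 7 higher. B cell markers were low in both groups, at 0.88 to 1.01 in ob/ob and 0.84 to 1.12 in ob/+, with none of 6 called. No part of these sums in the results on the 10 genes was tested.

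**Figure D5:**
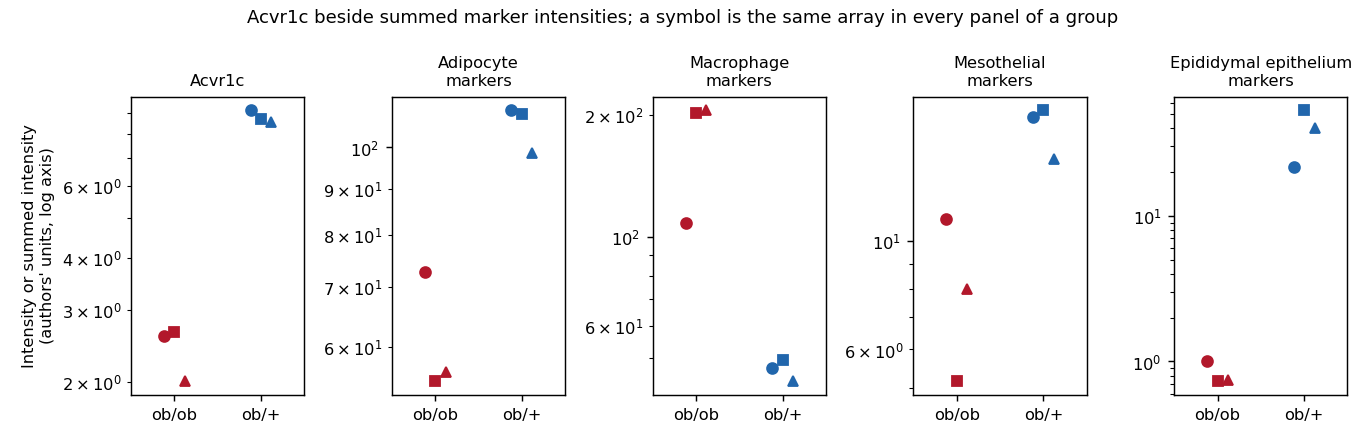
Sample intensity of Acvr1c and summed intensity of 4 marker lists (vertical axes, log scale, authors' units) on the 3 ob/ob arrays in red and the 3 ob/+ arrays in blue, a symbol marking the same array within a group. Acvr1c and the adipocyte, mesothelial and epididymal sums are lower on all ob/ob arrays, and the macrophage sum is higher.

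The pattern of the brighter Acvr1c reporter across the 6 arrays was compared with that of 16398 genes by the root mean square difference of the log2 ratios. The dimmer Acvr1c reporter, with a log2 fold change of -0.67, was not compared. The closest were Fgfr2, at 0.079, then Pde1a at 0.099, Pde3b at 0.135, Cp at 0.137 and Ppp4r4 at 0.147. Rounding could move the log2 fold changes of Fgfr2 and Ppp4r4 by up to 0.14 and 0.13, so the order of these genes cannot be read. Pde1a encodes a phosphodiesterase and read 0.21, 0.18 and 0.17 on the ob/ob arrays, against 0.66, 0.69 and 0.74 on the ob/+ arrays. Cp, which encodes ceruloplasmin, read 1.88, 1.67 and 1.34 in ob/ob and 5.41, 5.7 and 5.8 in ob/+. The likeness of Fgfr2 holds for 1 reporter, as its second reporter gave -0.26 (adjusted p 0.047 in limma). For Gdf3 the closest were Tepsin, Sfxn3, Rnf166, Arhgef10l and Pxn, at 0.044 to 0.060, none of which passed the test. Rounding could move the Gdf3 log2 fold change by up to 0.26, more than these differences, so their order cannot be read. The likeness covers the difference between the groups and the spread within them together, over 6 arrays.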

How the data were processed

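Transcript levels of 3 ob/ob and 3 ob/+ samples were measured on 6 arrays. Trizol was used for extraction and RNA was amplified, per the labels' protocols. The submitters' processing notes name Agilent Feature Extraction 8.5.1.1 as the software. The authors deposited linear intensities of both channels, normalized in a way the sources used here do not give, and 97.45% of them come in steps of 0.01. They also deposited a p-value per reporter and array, whose test those sources do not name, and, in the series matrix, log10 ratios, which on the log2 scale were within 0.02 of the ratio of intensities for 100.0% of values. Median sample intensity was 0.11 to 0.15 per array, 42.0% of intensities were under 0.1, and the number of arrays limits the precision.

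Table columns carry no replicate number of the labels and were assigned to groups only. Fits that need the number used the matrix. The series' design text speaks of db/db islets, and the labels were followed. Gene symbols were updated for 3208 reporters through a RefSeq gene table. The main test was limma 3.58.1 (R 4.3.3, lmFit and eBayes, two-sided) on log2 of sample over pool, ob/ob minus ob/+, over the 39407 reporters with values on at least 2 arrays per group, with Benjamini-Hochberg adjustment and a threshold of 0.05. The prior had 0.86 degrees of freedom. Each gene is given by its brightest reporter. The fit was tested on simulated data. Rounding bounds assume an error of 0.005 in each intensity.

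The members and lists were chosen with earlier results of these data known. The naming rule took all members, receptors, co-receptors, Smads and lipolysis genes, the 4 lowest p-values of each other list, and the 5 genes most like Acvr1c and Gdf3, and 2 genes of the lists are not reported here. Alternatives were other normalizations, filters, priors, reporter choices and thresholds, a replicate block and leaving out each array. Python 3.11.15, pandas 2.3.3 and matplotlib 3.10.9 were used for the rest.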

Additional observations from a re-analysis of the deposited data

Results flagged for a closer look

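In the authors' deposited table each reporter has a p-value on each array for the sample against the pool, which the comparisons above did not use. Acvr1c, Inhbb, Fst and Tgfb2 each had such a p under 0.05 on 3 of 3 ob/ob arrays and on 0 ob/+ arrays in the authors' deposited table. Of all genes, 4583 (17.8%) had this on all 3 ob/ob arrays and 143 (0.555%) on all 3 ob/+ arrays in the authors' deposited table. No member had it on any ob/+ array, of which Inhbb has values on 2. The share of all genes without it on any ob/+ array was not counted, so its absence in the members cannot be read as particular to them. The share of 17.8% sets no condition on the ob/+ arrays. The pool is itself ob/+ RNA. Inhbb is in this set although it did not pass in limma, and Inhba, which passed, is not. No sample was tested as an outlier, because the groups hold 3 samples each.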

How the results depend on the processing

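Over 22 alternatives, 193 of 217 values of the 10 members kept their direction and side of the threshold, 18 lost the call, 6 gained it and 0 reversed. Acvr1c kept its call under all 22. After quantile normalization 557 genes were called in place of 6331, with 1 member called, 0 higher and 1 lower, and Fst (0.28, adjusted p 0.534 in limma), Inhba (-0.86, 0.144) and Tgfb2 (-0.40, 0.171) were lost. Acvr1c had -1.26 in place of -1.82. That setting gives both groups the same distribution of ratios to an ob/+ pool, and its losses cannot be told apart from that effect. At an adjusted p under 0.01, 2130 genes and 2 members were called, 0 of them higher. Leaving out each array gave 3133 to 5365 genes, 2 to 3 members called and 0 to 1 higher. The gene count was 4040 without ob/ob replicate 2, 3133 without ob/ob replicate 3, 3289 without ob/+ replicate 1 and 3523 without ob/+ replicate 3. The count of members higher was 0 under loess normalization. It was 2 with the sample channel alone, with dim reporters left out by either filter, and with the dimmest reporter, the reporter of lowest p or the mean over reporters of each gene. With its dimmest reporter Acvr1b reversed to -0.09.

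The deviations of same-numbered ob/ob and ob/+ samples from their group means had correlations of 0.062, -0.062 and 0.003. Samples of unlike number had -0.093 to 0.103. With 3 samples per group these values cannot settle whether the numbers pair the samples. With the replicate number as a block 2581 genes and 2 members were called, 0 higher, and Acvr1c had -1.82 (adjusted p 0.0397 in limma). Where a call was lost, the cause was not tested. Signal near the step of 0.01 limits Inhba, Gdf3, Tgfb2, Acvr2a, Bmpr2, Adrb3, Cfc1 and Tdgf1, among others.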
